A study of Mus musculus with 8 samples.

Results

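The genes described here are 10 regulators of mitochondrial biogenesis in brown adipose tissue (BAT): Ppargc1a, Ppargc1b, Pprc1, Esrra, Esrrb, Esrrg, Nrf1, Tfam, Tfb2m and Perm1. They were picked by symbol from a table of 49452 genes, and each symbol matched 1 gene. The table gives FPKM (fragment counts set against transcript length and library size) for 8 BAT libraries from male C57BL/6 mice, in 4 groups of 2. In the first experiment, mice aged 10 to 12 weeks were either housed at 22 °C (replicates 4 and 7) or held at 4 °C for 24 h (replicates 2 and 11), with the last 4 h of the cold spent without food. Fasting of the 22 °C mice is not given in the sources used here. In the second, mice aged 32 weeks had received for 28 weeks either a normal chow diet (NCD, replicates 6 and 8; the study calls it control diet) or a high-fat diet (HFD, replicates 2 and 6). The study asked which transcripts follow BAT function, and here the question was how the regulators of mitochondrial number and respiratory capacity stood in the cold and under HFD.

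BAT makes heat by burning fuel in its many mitochondria, and the coactivators of the PGC-1 family are known as switches for building them. PGC-1 proteins do not bind DNA themselves. They dock on transcription factors such as the estrogen-related receptors (ERRs) and NRF1, which bind the promoters of nuclear genes for respiratory chain subunits and for the proteins that copy and transcribe mitochondrial DNA. In brown fat, adrenergic signals raised by cold act through cAMP and the factor CREB on the Ppargc1a promoter, and this is among the best known early steps of the thermogenic response.

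The promoters below are shown because their letters can be set beside the expression of the gene, from 250 bases before to 50 bases after the RefSeq start (GRCm38.p6, 5′ to 3′ on the strand of the gene). RefSeq promoters were at hand for 9 of the 10 genes, 14 promoters in all. Capitals mark 4 short motifs searched on both strands: the core of the cAMP response element (CRE), TGACG; the core of an ERR site, AAGGTCA; a core of the NRF1 site, GCGCATGC; and the core of a site for GABP, an ETS factor also called NRF-2, CCGGAAG. Of 32851 mouse promoters of this length, 20.8% hold the first, 4.72% the second, 2.71% the third and 8.86% the last. Of the 14 promoters, 6 held a match to any of these motifs and 8 held none, among them all those of Esrrg, Nrf1 and Pprc1. A CRE core was in 2 of 14, an ERR core in 1, an NRF1 core in 2 and a GABP core in 1. The 4 printed were chosen among those with a match.

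Ppargc1a, chr5:51567676-51567975, minus strand, CRE core in reverse 49 bases before the start: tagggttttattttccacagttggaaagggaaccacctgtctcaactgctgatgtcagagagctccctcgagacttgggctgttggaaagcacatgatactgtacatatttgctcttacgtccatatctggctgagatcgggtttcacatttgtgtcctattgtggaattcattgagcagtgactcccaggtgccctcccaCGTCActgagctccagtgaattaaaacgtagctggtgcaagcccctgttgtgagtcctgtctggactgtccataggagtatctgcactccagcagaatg

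Perm1, chr4:156215677-156215976, plus strand, ERR core in reverse 202 bases before the start: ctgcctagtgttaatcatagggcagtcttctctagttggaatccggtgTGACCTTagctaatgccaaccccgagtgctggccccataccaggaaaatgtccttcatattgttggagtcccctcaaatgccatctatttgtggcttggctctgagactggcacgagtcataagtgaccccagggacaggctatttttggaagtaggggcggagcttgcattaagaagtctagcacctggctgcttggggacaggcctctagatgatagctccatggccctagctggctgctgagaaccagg

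Esrra, chr19:6921759-6922058, minus strand, NRF1 core in reverse 34 bases before the start: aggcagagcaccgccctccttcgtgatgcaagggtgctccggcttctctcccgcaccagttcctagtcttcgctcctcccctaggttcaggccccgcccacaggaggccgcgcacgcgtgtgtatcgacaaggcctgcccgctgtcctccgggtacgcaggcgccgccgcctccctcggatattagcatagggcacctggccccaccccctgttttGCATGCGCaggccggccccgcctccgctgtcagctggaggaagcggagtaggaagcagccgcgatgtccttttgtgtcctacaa

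Tfam, chr10:71237995-71238294, minus strand, GABP core 47 bases before the start: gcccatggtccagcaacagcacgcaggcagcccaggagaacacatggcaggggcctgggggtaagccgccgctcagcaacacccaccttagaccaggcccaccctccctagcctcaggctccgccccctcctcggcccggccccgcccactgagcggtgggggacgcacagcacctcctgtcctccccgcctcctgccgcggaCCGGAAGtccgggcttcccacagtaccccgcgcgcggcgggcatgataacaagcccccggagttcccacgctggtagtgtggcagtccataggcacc

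These matches describe letters and were not tested as binding sites. Esrrb also held 2 CRE cores, 158 and 117 bases before a start, and Tfb2m an NRF1 core 13 bases after its start.

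Before the results, 3 features of the libraries bear on them. Every X and Y gene is listed at 0 in both 22 °C libraries and in NCD replicate 6, while the 5 other libraries have 779 to 1175 of 2613 X genes above 0. In the cold comparison this coincides with the control group, so a difference in how these libraries were handled cannot be told apart from temperature. The satellite-repeat gene Gm10800 split every group into 1 satellite-high library, above 100 FPKM, and 1 satellite-low library, at most 4.13 FPKM. The satellite-high ones are replicate 4 of 22 °C, replicate 11 of 4 °C, replicate 8 of NCD and replicate 2 of HFD. Sums of 11 skeletal muscle marker genes also differed between groups, running from 144.7 to 594.5 FPKM at 22 °C, from 2052 to 4605 at 4 °C, from 616 to 1594 under NCD and from 40.2 to 211.5 under HFD. Judged from the step between low FPKM values, which were whole multiples within 0.1 fragment for 97.7% to 98.5% of the values used, libraries held about 90.4 to 124 M fragments. At that depth the scarcest member, Esrrb, rested on about 39.8 to 456 fragments per library and every other member on at least 423. These figures cover counting error only.

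Brown adipocyte identity was clear in the libraries: the 8 brown markers (Ucp1, Cidea, Dio2, Elovl3, Cox7a1, Cox8b, Ppara and Prdm16) summed to 2780 to 10000 FPKM per library. In the cold 2 of them, Elovl3 and Dio2, were past threshold and higher, beside 1.22% of all genes. No gene was past threshold without limma's intensity trend or with the muscle marker score as a covariate, so both calls were lost there. Both calls were also lost without 4 °C replicate 2 and without 4 °C replicate 11. Ucp1, the uncoupling protein gene, had 699 and 1430 FPKM at 22 °C and 6460 and 5370 at 4 °C (adjusted p 0.0646). Of the 8, 5 were higher in both 4 °C libraries and 1 lower, Prdm16 (4.54 and 8.03 against 3.12 and 3.72 FPKM, adjusted p 0.216), while Cox8b and Ppara overlapped. Of all genes, 37.9% were higher and 20.6% lower in both 4 °C libraries. Under HFD none was past threshold, 2 were lower in both libraries and 2 higher, beside 5.8% and 39.9% of all genes. Elovl3 had 234 and 118 FPKM under NCD and 18.1 and 17.8 under HFD (log2 fold change -3.14, adjusted p 0.118), and Cidea 1120 and 760 against 464 and 412 (adjusted p 0.513). Dio2 had 12.7 and 4.87 against 17.4 and 13.5 (adjusted p 0.458), and Prdm16 2.2 and 2.14 against 2.57 and 2.44 (adjusted p 0.839). The 4 pan-adipocyte markers summed to 4530 to 5060 FPKM at 22 °C and 7800 to 8770 at 4 °C. Under NCD they summed to 4220 to 7870 and under HFD to 5740 to 7850. The 4 endothelial markers summed to 65.7 to 67.3 FPKM at 22 °C and 65.7 to 98.8 at 4 °C. Under NCD they summed to 47.7 to 54.2 and under HFD to 75.6 to 80.5. No gene of either list was past threshold in either comparison. No macrophage, lymphoid, erythroid or muscle marker was past threshold either. The 5 lymphoid markers summed to at most 1.21 FPKM. Of 4 erythroid markers, 2 were found and summed to 48.5 to 67.8 FPKM at 22 °C and 26.8 to 109 at 4 °C. Their sums were 95 to 156 under NCD and 188 to 383 under HFD. Of 4 white adipocyte markers, Lep and Nnat were past threshold and higher under HFD, beside 0.0513% of all genes. Retn was higher in both HFD libraries without passing, and Agt overlapped. The calls of Lep and Nnat were lost with no filter, after quantile normalization or rescaling, with X, Y and mitochondrial genes, or without the trend. No gene passed in these settings. With the muscle score as a covariate only 1 gene passed under HFD, so at least 1 of these 2 calls was lost there too. In the cold Lep and Nnat were lower in both 4 °C libraries and Retn and Agt higher, and none passed.

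**Figure D1:**
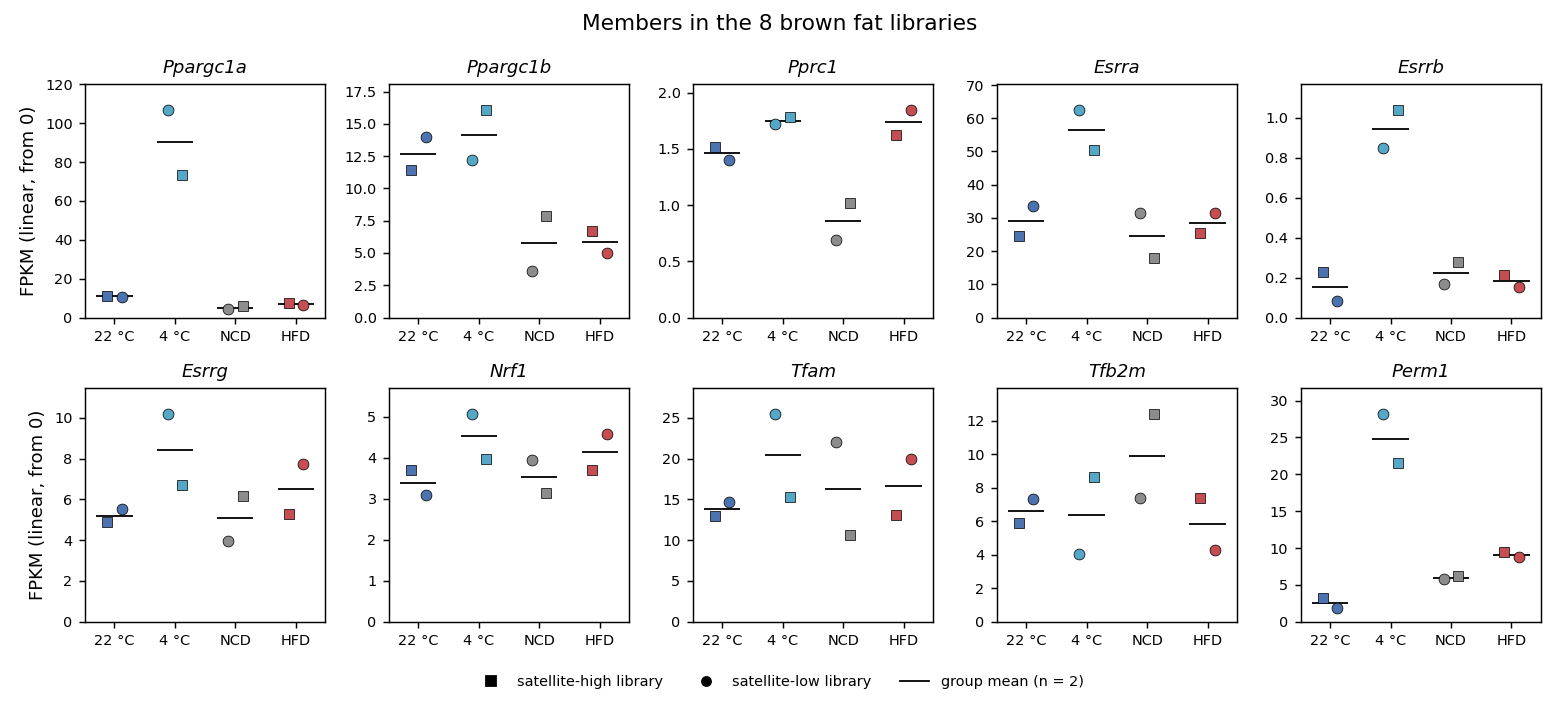
FPKM of each member (vertical axis, linear from 0, its own scale per panel) in the 8 libraries, by group; squares are satellite-high and circles satellite-low libraries, and bars are means of 2. Ppargc1a, Esrrb and Perm1 stand far higher in both 4 °C libraries than in the 6 others, and Pprc1 is lowest under NCD.

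The order of the regulators by level differed between 22 °C and 4 °C. At 22 °C Esrra, the orphan receptor ERRα, was the most abundant of the 10 per unit length, with a mean of 29.1 FPKM, followed by Tfam (13.8), Ppargc1b (12.7) and Ppargc1a (10.9). At 4 °C Ppargc1a led with 90.5 FPKM, followed by Esrra (56.6) and Perm1 (24.8). Esrra led again under NCD (24.7) and HFD (28.6). Pprc1 and Esrrb were the lowest in every group, at 0.856 to 1.75 and 0.155 to 0.944 FPKM. Some neighbours in these orders had overlapping library values: Tfam with Ppargc1b and Nrf1 with Perm1 at 22 °C, Perm1 with Tfam at 4 °C, and Esrra with Tfam under NCD.

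Of the 10 members, 2 were past threshold in the cold, Ppargc1a and Perm1, and both were higher. Past threshold means that limma, run on log2(FPKM + 1) of all 17477 genes tested, gave an adjusted p under 0.05 and that the log2 difference was 1 or more, up or down. Of all genes tested, 1.22% were past threshold and higher and 0.223% past threshold and lower. All 10 members passed the filter on low values. For 8 of 10 members the 22 °C values all fell short of the 4 °C values, which held for 37.9% of all genes. The reverse held for 0 members and 20.6% of all genes. The members had a median log2 fold change of 0.54, and genes averaging 1 FPKM or more had one of 0.21.

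Ppargc1a encodes PGC-1α, the cold-inducible coactivator of thermogenic and respiratory genes (ENSMUSG00000029167, chr5:51454250-51567726, minus strand, with 13 exons in its longest transcript). At 22 °C it stood at 10.9 and 10.8 FPKM (replicates 4 and 7), and at 4 °C it reached 107 and 73.6 (replicates 2 and 11). Under NCD it was 4.39 and 5.86 (replicates 6 and 8), and under HFD 7.41 and 6.66 (replicates 2 and 6). Both 4 °C libraries were thus far above all others, and the 22 °C libraries nearly coincided. The means were 10.86 ± 0.0117 and 90.53 ± 23.9 FPKM (SD, n = 2), so Ppargc1a rose 8.34-fold, and the log2 fold change was 2.92 (SE 0.25, 95% interval 2.28 to 3.57, adjusted p 0.0208, limma). The difference was 2.65 within satellite-high and 3.20 within satellite-low libraries. Its promoter above holds a CRE core, as do 20.8% of all promoters. Whether this core bears on the difference was not tested.

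Perm1 encodes a muscle-enriched regulator known to be induced by PGC-1 and ERRs and to act on oxidative genes (ENSMUSG00000078486, chr4:156215868-156221307, plus strand, 1 transcript of 4 exons). At 22 °C it stood at 3.18 and 1.85 FPKM, and at 4 °C it reached 28.2 and 21.5. The NCD libraries had 5.74 and 6.23, the HFD libraries 9.44 and 8.73. The 4 groups did not overlap, in the order 22 °C, NCD, HFD and 4 °C. The means at 22 °C and 4 °C were 2.516 ± 0.945 and 24.84 ± 4.77 FPKM (SD, n = 2), so Perm1 rose 9.87-fold, and the log2 fold change was 2.89 (SE 0.27, 95% interval 2.21 to 3.57, adjusted p 0.0218, limma). Within satellite-high libraries the difference was 2.43 and within satellite-low libraries 3.36.

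The calls of both genes were lost without either 4 °C library: without replicate 2 the adjusted p was 0.119 for Ppargc1a and 0.147 for Perm1, and without replicate 11 it was 0.0567 and 0.0585. They were also lost with no filter (0.221 and 0.269), without the intensity trend (0.0665 and 0.0743) and with the muscle marker score as a covariate in all 8 libraries (0.111 and 0.108), while the fold changes stayed at 2.58 and 2.45 or more in these settings.

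**Figure D2:**
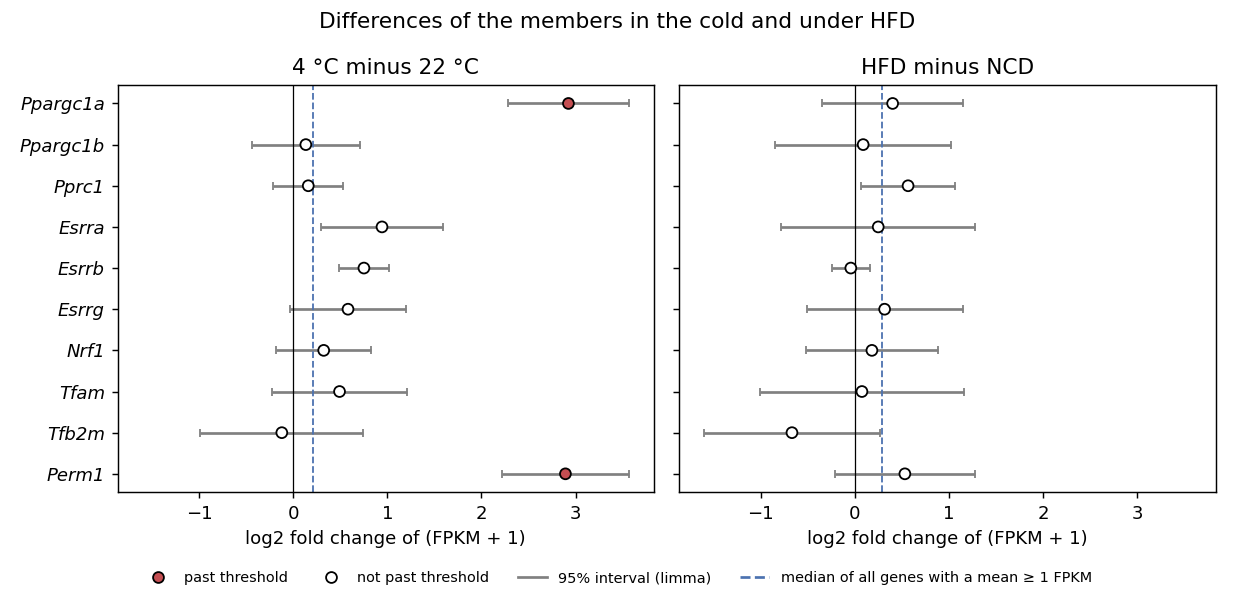
Log2 fold change of (FPKM + 1) for each member at 4 °C against 22 °C (left) and HFD against NCD (right), with limma's 95% intervals over 2 and 2 libraries; red points are past threshold, and the dashed line is the median of all genes averaging 1 FPKM or more. Ppargc1a and Perm1 stand apart in the cold, at 2.92 and 2.89, and no member is past threshold under HFD.

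The ERR genes encode orphan nuclear receptors that PGC-1 proteins coactivate. Esrra (ENSMUSG00000024955, chr19:6910977-6921813, minus strand) had 24.6 and 33.6 FPKM at 22 °C and 62.6 and 50.5 at 4 °C. The groups did not overlap and the means differed 1.94-fold, but the log2 fold change of 0.94 (SE 0.26, 95% interval 0.30 to 1.59) had an adjusted p of 0.109 and did not pass. It was 0.43 with quantile normalization, 0.51 on rescaling without mitochondrial genes, rRNA and Ucp1, and 1.52 with the muscle score as a covariate. Esrra was at 31.4 and 18.0 FPKM under NCD and 25.5 and 31.6 under HFD, so these groups overlapped.

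Esrrb, the ERRβ gene, known best from stem cells and barely present here (ENSMUSG00000021255, chr12:86361117-86521628, plus strand), had 0.229 and 0.0805 FPKM at 22 °C and 0.848 and 1.04 at 4 °C. It was at 0.153 to 0.276 FPKM in the 4 NCD and HFD libraries. The 4 °C libraries were the only ones above 0.3 FPKM, and the means differed 6.09-fold. On the log2(FPKM + 1) scale, which compresses such low values, the difference was 0.75 (SE 0.11), with an adjusted p of 0.0467, and it stayed below the fold threshold. With a pseudocount of 0.1 FPKM the difference was 2.09 and the adjusted p 0.0533. The adjusted p was 0.171 with median centring, 0.19 with the muscle score, 0.336 with no filter and 0.0893 without the trend. It ran from 0.0122 to 0.0493 with all 8 libraries, library type, X, Y and mitochondrial genes, rescaling or quantile normalization. Without 1 library the difference ran from 0.66 to 0.85. The 22 °C value of 0.0805 FPKM was under the filter of 0.1 FPKM, so Esrrb passed that filter through its 4 °C values.

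Esrrg, the ERRγ gene, whose product is abundant in oxidative tissues (ENSMUSG00000026610, chr1:187608791-188214885, plus strand), had 4.89 and 5.53 FPKM at 22 °C and 10.2 and 6.70 at 4 °C. Its groups did not overlap, and the log2 fold change was 0.58 (SE 0.24, 95% interval -0.03 to 1.2, adjusted p 0.219). It was 0.31 without 4 °C replicate 2 and 0.19 on the same rescaling. Esrrg was lower than Esrra in every library, with an Esrrg to Esrra ratio of FPKM from 0.127 to 0.343.

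Ppargc1b encodes PGC-1β, the close relative of PGC-1α that is less tied to cold (ENSMUSG00000033871, chr18:61298136-61400431, minus strand). At 22 °C it stood at 11.4 and 14.0 FPKM, and at 4 °C it was at 12.2 and 16.1. These groups overlapped, and the log2 fold change of 0.14 (SE 0.23, 95% interval -0.44 to 0.71, adjusted p 0.757) was smaller than its SE and changed sign with the scaling. The difference between these genes was not tested. The interval of Ppargc1a was 2.28 to 3.57. Pprc1 encodes PRC, the most distant member of the family, linked to growth signals (ENSMUSG00000055491, chr19:46044886-46072915, plus strand). It had 1.52 and 1.40 FPKM at 22 °C and 1.72 and 1.78 at 4 °C, a log2 fold change of 0.16 (95% interval -0.21 to 0.53, adjusted p 0.541).

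The ratio of Ppargc1a to Ppargc1b does not depend on how a library is scaled. It was 0.950 and 0.772 at 22 °C and 8.80 and 4.58 at 4 °C. It was 1.22 and 0.742 under NCD and 1.10 and 1.33 under HFD. PGC-1α and PGC-1β transcripts were therefore near parity in 6 libraries, and the alpha form was in excess in both 4 °C libraries. The Perm1 to Ppargc1a ratio behaved otherwise: it was 0.293 and 0.170 at 22 °C and 0.262 and 0.292 at 4 °C, against 1.31 and 1.06 under NCD and 1.27 and 1.31 under HFD. It was higher in all 4 libraries of the diet experiment than in all 4 of the temperature experiment. Age and experiment differ together between these sets and cannot be told apart.

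**Figure D3:**
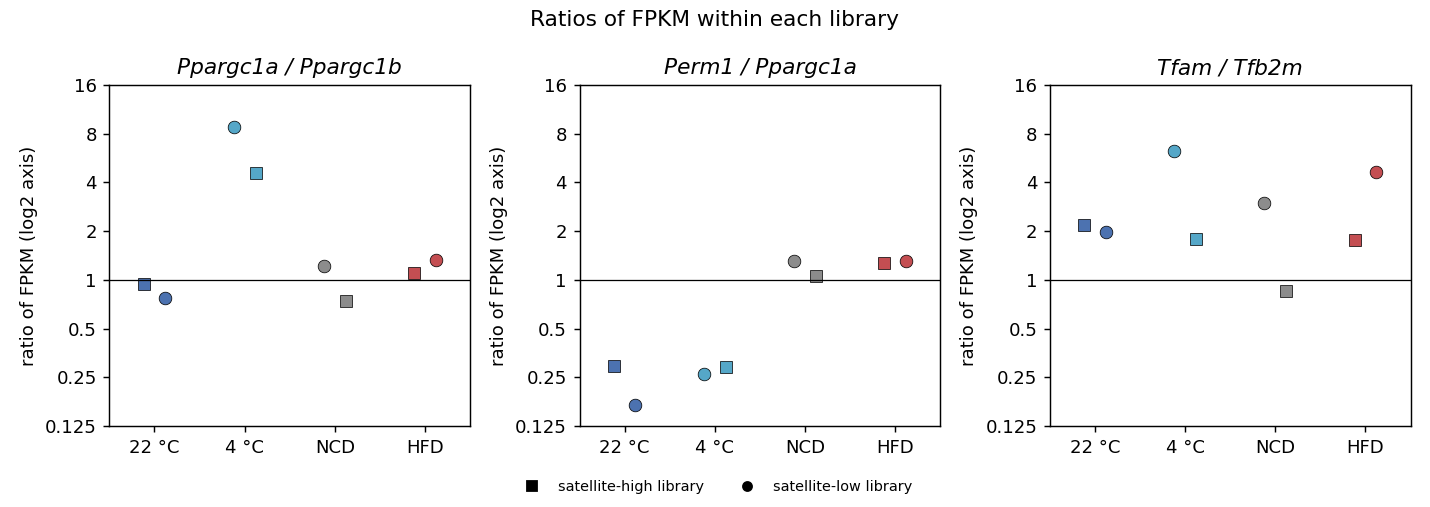
Ratios of FPKM within each library (log2 axis) for Ppargc1a to Ppargc1b, Perm1 to Ppargc1a and Tfam to Tfb2m; squares are satellite-high and circles satellite-low libraries. The first ratio is 4.58 and 8.80 at 4 °C and at most 1.33 elsewhere, and in the last the satellite-low library is the higher one in 3 of 4 groups.

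None of Nrf1, Tfam and Tfb2m, which act downstream of the coactivators, was past threshold in the cold. Nrf1 encodes nuclear respiratory factor 1, which binds promoters of respiratory chain and mitochondrial DNA genes (ENSMUSG00000058440, chr6:30047988-30153458, plus strand). It had 3.69 and 3.10 FPKM at 22 °C and 5.07 and 3.97 at 4 °C (log2 fold change 0.33, SE 0.20, adjusted p 0.371). Tfam encodes the protein that packages mitochondrial DNA and opens its promoters (ENSMUSG00000003923, chr10:71225464-71238280, minus strand). It had 13.0 and 14.7 FPKM at 22 °C and 25.5 and 15.3 at 4 °C (log2 fold change 0.49, SE 0.29, 95% interval -0.23 to 1.21, adjusted p 0.343). Most of the Tfam difference came from 4 °C replicate 2: without that library it was 0.14, and without replicate 11 it was 0.84. Tfb2m encodes the transcription factor that melts DNA for the mitochondrial RNA polymerase (ENSMUSG00000026492, chr1:179528055-179546267, minus strand). It had 5.88 and 7.35 FPKM at 22 °C and 4.05 and 8.63 at 4 °C, so the 4 °C libraries enclosed the others, and the log2 fold change was -0.12 (SE 0.34, adjusted p 0.863).

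Values of the members were also compared between library types. Tfam was lower in the satellite-high library in 4 of 4 groups, by 0.17, 0.70, 0.98 and 0.57 on the log2(FPKM + 1) scale at 22 °C, 4 °C, NCD and HFD. Esrra was lower there in 4 of 4 groups as well, and no other member was. Among 18902 genes, 26.2% were lower in the satellite-high library in every group, so this pattern is not particular to the members. Tfb2m was higher in the satellite-high library at 4 °C, NCD and HFD, by 0.93, 0.68 and 0.66, and lower at 22 °C. Differences between groups had opposite signs within satellite-high and satellite-low libraries for Tfb2m (0.49 and -0.73) and Ppargc1b (0.46 and -0.19) in the cold. Under HFD they did for Ppargc1b (-0.21 and 0.38), Esrrg (-0.19 and 0.82) and Tfam (0.28 and -0.13). The part of library type in these differences was not tested.

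Under HFD no member was past threshold, where 0.0513% of all 17543 genes tested were past it and higher and 0.0171% past it and lower. At an unadjusted p under 0.05 there was 1 of 10, Pprc1, beside 14.4% of all genes. For 3 members, Ppargc1a, Pprc1 and Perm1, the NCD values all fell short of the HFD values, which held for 39.9% of all genes. The reverse held for 0 members and 5.8% of all genes. The members had a median log2 fold change of 0.21, and genes averaging 1 FPKM or more had one of 0.29.

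Pprc1 was at 0.693 and 1.02 FPKM under NCD and 1.62 and 1.85 under HFD. The HFD mean was 2.03 times the NCD mean. In limma the difference was 0.56 on the log2 scale (SE 0.21, 95% interval 0.07 to 1.06, adjusted p 0.296). With library type as a covariate its adjusted p was 0.0426, and the difference stayed short of the fold threshold. That fit gave 6399 of 17543 genes an unadjusted limma p under 0.05, against 2532 in the main fit. A low p there is thus not particular to Pprc1. Perm1 differed by 0.53 (SE 0.32, adjusted p 0.50) and by the same 0.53 within each library type. Ppargc1a differed by 0.40 (SE 0.32, 95% interval -0.35 to 1.15, adjusted p 0.616). This interval ends below the 2.92 measured in the cold. In no HFD library was Ppargc1a, Perm1 or Pprc1 below an NCD library in FPKM as deposited. The differences shrank with quantile normalization and median centring, to 0.047 and 0.045 for Ppargc1a, 0.20 and 0.18 for Perm1 and 0.29 and 0.21 for Pprc1. On rescaling they were 0.25 for Ppargc1a, 0.38 for Perm1 and 0.43 for Pprc1. With the muscle score as a covariate in all 8 libraries they were larger, at 0.75, 0.99 and 0.61 in the same order.

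Tfb2m was at 7.38 and 12.4 FPKM under NCD and 7.40 and 4.30 under HFD. Its log2 fold change of -0.67 (SE 0.40, adjusted p 0.501) was the only one beyond 0.05 below 0 among the members, and the groups overlapped by a narrow margin. The difference was -0.68 within satellite-high and -0.66 within satellite-low libraries. With library type as a covariate its adjusted p was 0.0348, and the difference was still short of the fold threshold in that fit. There 6399 of 17543 genes had an unadjusted limma p under 0.05, against 2532 in the main fit. The difference ran from -0.33 without NCD replicate 8 to -1.01 without NCD replicate 6. It was -0.34 without HFD replicate 6 and -1.001 without HFD replicate 2. Tfam was at 22.0 and 10.7 FPKM under NCD and 13.1 and 20 under HFD, and the NCD pair enclosed the HFD pair.

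The other members overlapped between NCD and HFD. Ppargc1b was at 3.61 and 7.89 FPKM under NCD and 6.70 and 4.99 under HFD. Its NCD values were the furthest apart in relative terms among the 3 PGC-1 genes. Esrrg was at 3.97 and 6.16 against 5.30 and 7.75, and Nrf1 at 3.95 and 3.13 against 3.69 and 4.59. Log2 fold changes of Ppargc1b, Esrra, Esrrb, Esrrg, Nrf1 and Tfam ran from -0.04 to 0.31, with adjusted p from 0.73 to 0.958. Their 95% intervals reached from -1.01 to 1.28, so a log2 difference of 1 was not excluded for several of them.

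Set side by side, the 2 control groups overlapped for 5 of 10 members (Esrra, Esrrb, Esrrg, Nrf1 and Tfam). Both NCD libraries were lower for 3, Ppargc1a, Ppargc1b and Pprc1, beside 31% of all genes, and higher for 2, Tfb2m and Perm1, beside 12.2%. Ppargc1b was at 11.4 and 14.0 FPKM at 22 °C against 3.61 and 7.89 under NCD, and Ppargc1a at 10.9 and 10.8 against 4.39 and 5.86. Perm1 went the other way, with 3.18 and 1.85 against 5.74 and 6.23. These mice differ in age and in experiment, and no test was made. Within the span of Ppargc1a, 3 short gene models on its strand, Gm42614, Gm42615 and Gm43605, share 0 bases with its annotated exons. They were picked after their values were seen. Their FPKM ran from 0.961 to 2.08 at 22 °C, from 1.71 to 3.96 at 4 °C and from 0.0669 to 0.686 in the NCD and HFD libraries. Gm42613, which overlaps Ppargc1a on the opposite strand, had 1.14 and 0.634 FPKM at 22 °C and 1.48 and 1.04 at 4 °C, so these groups overlapped. It was at 0.0522 to 0.192 FPKM in the NCD and HFD libraries, so low values there are not particular to the strand of Ppargc1a.

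Genes that work with the members were taken from 3 lists written by hand. Among 34 tested partners and modifiers of PGC-1 (such as deacetylases, kinases, nuclear receptors and corepressors), none was past threshold in the cold, and 19 were higher and 5 lower in both 4 °C libraries, beside 37.9% and 20.6% of all genes. Their median log2 fold change was 0.35. The largest differences were in Fnip1, which encodes a folliculin partner that restrains oxidative programs (8.01 and 9.02 against 30.5 and 18.9 FPKM; log2 fold change 1.40, adjusted p 0.0636), Prkaa2, a catalytic AMPK subunit (0.93, adjusted p 0.0707) and the coactivator Ncoa1 (0.83, adjusted p 0.0683). Under HFD none passed, 15 were higher and 0 lower in both libraries (39.9% and 5.8% of all genes), and the median was 0.25. The largest differences were in Ncoa3 (0.75), Ncor1 (0.64) and Nrip1 (0.64), with adjusted p from 0.295 to 0.511.

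For the machinery that copies, transcribes and processes mitochondrial DNA, 24 genes were tested and none was past threshold in the cold. For 18 of them both 4 °C libraries were the higher ones and for 2 the lower ones, beside 37.9% and 20.6% of all genes (median 0.34 on the log2 scale). The largest differences were in the elongation factor Tefm (5.01 and 7.06 against 19.7 and 11.9 FPKM; 1.23, adjusted p 0.0921), the polymerase Polrmt (8.46 and 9.61 against 23.2 and 18.2 FPKM; 1.10, adjusted p 0.0627) and Mterf2 (1.03, adjusted p 0.087). Polrmt, Tefm and Mterf2 thus had larger log2 differences than Tfam (0.49) and Tfb2m (-0.12), and differences between these genes were not tested. Under HFD the median was 0.02 and 1 gene, Polrmt, was higher in both libraries, where 39.9% of all genes were (0.44, adjusted p 0.599). Mterf3 (0.47, adjusted p 0.668) and Polg (0.44, adjusted p 0.672) overlapped between groups.

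Of 24 tested targets of PGC-1 and ERRs, 1 was past threshold and higher in the cold, beside 1.22% of all genes. This was Fndc5, which encodes the precursor of irisin. It had 0.621 and 1.09 FPKM at 22 °C and 6.10 and 4.04 at 4 °C (log2 fold change 1.70, adjusted p 0.0467). This call was lost without 4 °C replicate 2, without replicate 11, without the intensity trend and with the muscle score, where no gene at all was past threshold. In 19 of 24 both 4 °C libraries were higher and in 0 lower, beside 37.9% and 20.6% of all genes, with a median of 0.51. Under HFD none passed, 1 was higher and 0 lower in both libraries (39.9% and 5.8% of all genes), and the median was -0.12. The largest differences there were in Fndc5 (-0.43, adjusted p 0.518), the citrate synthase gene Cs (0.41, adjusted p 0.776) and Pdk4 (-0.31, adjusted p 0.87).

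**Figure D4:**
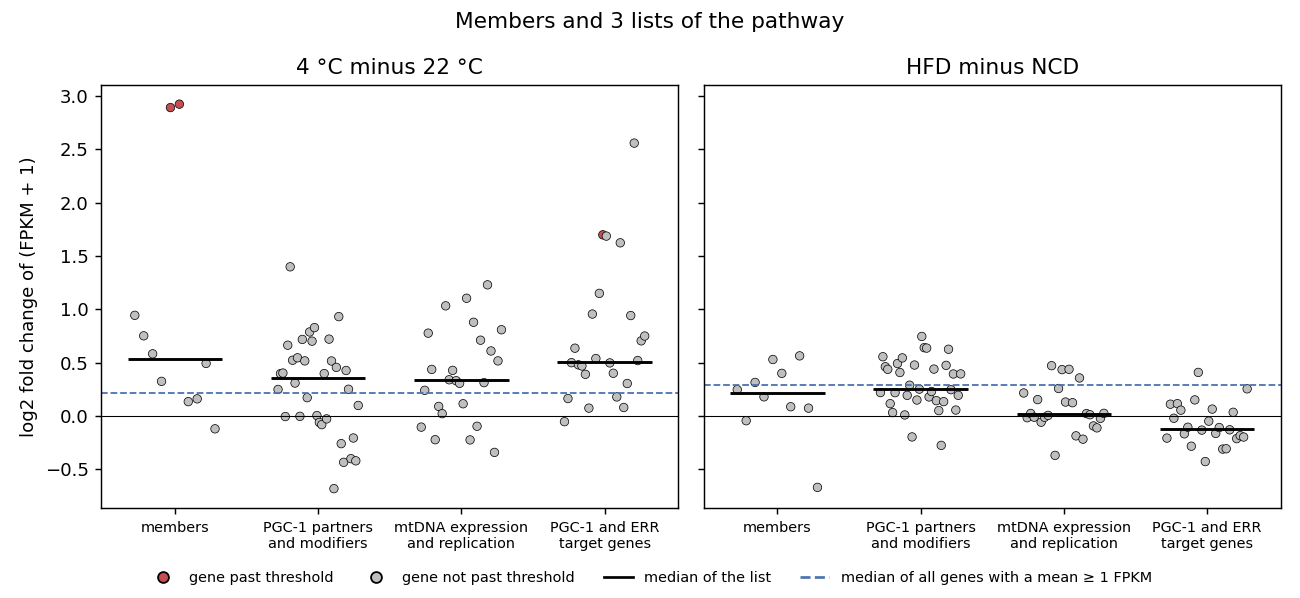
Log2 fold change of (FPKM + 1) for each tested gene of the members and of 3 lists, at 4 °C against 22 °C (left) and HFD against NCD (right); black bars are list medians, red points are past threshold, and the dashed line is the median of all genes averaging 1 FPKM or more. In the cold the list medians lie between 0.34 and 0.54, above the 0.21 of all genes, and under HFD all lie below 0.29.

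The transcripts that TFAM and TFB2M act on, the 13 mitochondrially encoded mRNAs, could not be compared. All 13 are listed at 0 in both 22 °C libraries and in NCD replicate 6. In the 5 other libraries their sum was 49800 and 72500 FPKM at 4 °C (replicates 2 and 11), 90200 under NCD (replicate 8) and 70000 and 72500 under HFD (replicates 2 and 6).

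Perm1, Ppargc1a, Esrrb, Esrrg and Fndc5 are also expressed in skeletal muscle, so their values are set beside the muscle markers. All 11 markers found of 12 listed had higher values in both 4 °C libraries, as did 37.9% of all genes (median 3.37 on the log2 scale, adjusted p 0.0602 to 0.109). In the diet experiment the HFD values lay below the NCD values for 10 of 11, beside 5.8% of all genes (median -3.67, adjusted p 0.137 to 0.534). Within each group, Perm1 and Ppargc1a were higher in the library with the larger marker sum in 4 of 4 groups, as were 6.61% of 18902 genes. For Ppargc1a the 22 °C pair nearly coincided, at 10.9 against 10.8 FPKM. For Perm1 these pairs were 3.18 against 1.85 FPKM at 22 °C, 28.2 against 21.5 at 4 °C, 6.23 against 5.74 under NCD and 9.44 against 8.73 under HFD. Esrrb was higher there in 3 of 4 groups, Ppargc1b, Pprc1, Esrrg, Nrf1, Tfb2m and Fndc5 in 2, and Esrra and Tfam in 1. Between diets, Perm1 and Ppargc1a had higher FPKM in the 2 HFD libraries, which held fewer muscle transcripts, by differences that did not pass. For Ppargc1a the difference nearly vanished with quantile normalization and median centring, as given above, but was 0.25 on rescaling. In the cold Perm1 and Ppargc1a were higher in the 2 libraries with more muscle transcripts, as were Esrrb, Esrrg and Fndc5. Between diets Esrrb, Esrrg and Fndc5 overlapped. Fndc5 had 0.642 and 1.86 FPKM under NCD (replicates 6 and 8) and 0.569 and 0.657 under HFD. Esrrg had 3.97 and 6.16 against 5.30 and 7.75. The part of muscle RNA in the cold differences was not tested beyond the covariate given above. In bulk tissue, a changed share of a cell type cannot be told apart from a changed level per cell. The 6 macrophage markers were all higher in both HFD libraries, as were 39.9% of all genes. Their sums were 39.3 to 107 FPKM under NCD and 187 to 239 under HFD.

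**Figure D5:**
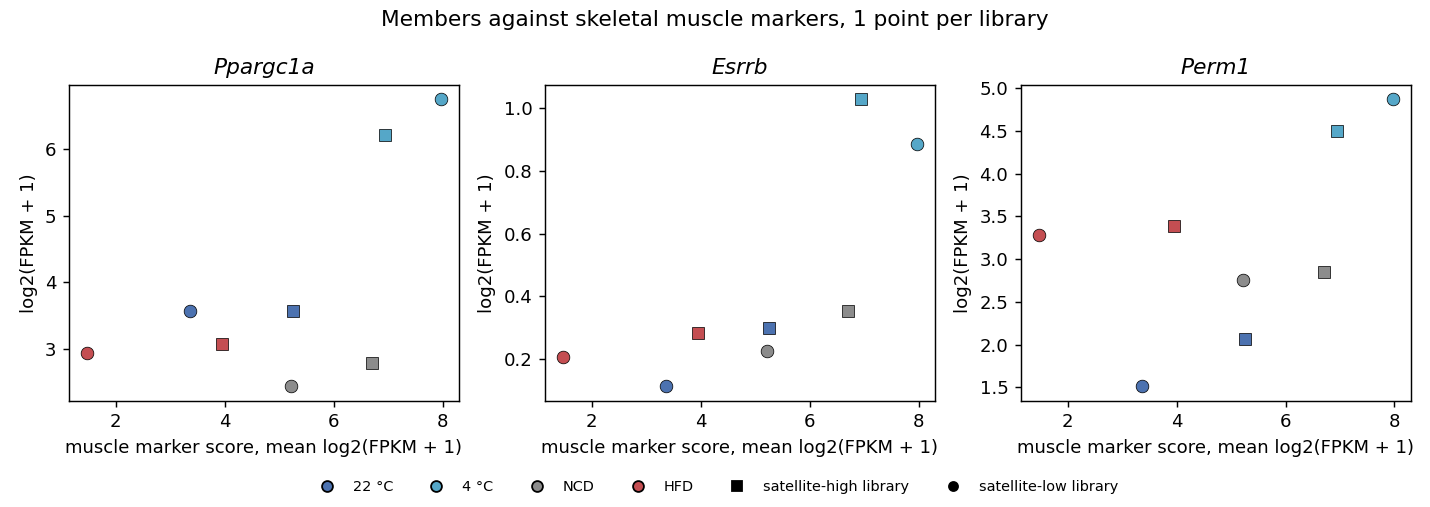
Log2(FPKM + 1) of Ppargc1a, Esrrb and Perm1 (vertical axes) against the mean log2(FPKM + 1) of 11 skeletal muscle markers (horizontal axis), 1 point per library, colours for groups. The 4 °C libraries are highest on both axes, while the HFD libraries, at marker scores of 1.47 and 3.96, lie left of the NCD libraries and above them for Ppargc1a and Perm1.

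Patterns over the 8 libraries were compared as a description only, since the points share groups and library types. Across the 10 members, Ppargc1a was most like Esrrb (Pearson r 0.92 on log2(FPKM + 1)) and Esrra (0.86), and Perm1 most like Esrrb (0.85). Tfb2m ran against Nrf1 (-0.81) and Tfam (-0.73), and Nrf1 and Tfam ran together (0.83). Among 10882 autosomal genes averaging 1 FPKM or more, the 5 most like Ppargc1a were Mapkapk2 (0.985), Zfp568 (0.98), Gm44243 (0.98), Gm15856 (0.979) and Gm11827 (0.978). For Ppargc1b they were Sik1 (0.973), a cAMP-induced kinase, Zfp629 (0.972), Zmiz2, Tpcn1 and Ulk1 (0.963 each). For Perm1 they were Tmtc1 (0.984), Ncoa1 (0.976), Tom1 (0.967), Adam12 and Mfsd2a (0.966 each). Mfsd2a, which encodes a lysolipid transporter, had 1.17 and 0.212 FPKM at 22 °C and 51.9 and 57.8 at 4 °C.

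Several members overlap other genes. Esrra shares 73 bases with Trmt112 on the opposite strand (6.92 to 12 FPKM) and Pprc1 shares 329 bases with Ldb1 on the opposite strand (5.97 to 13.4 FPKM). Whether FPKM was made with the strand is not given in the sources used here, so the values of both genes are uncertain by the reads from the shared bases.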

How the data were processed

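RNA-Seq libraries of BAT were made by the authors from rRNA-depleted RNA with a directional kit and sequenced as paired ends of 100 bases. Per the labels and the study's methods, reads were mapped to GRCm38 with Tophat2 2.0.10 and the deposited FPKM were obtained with Cufflinks (2.1.1 in the methods, 2.2.1 in the processing notes, which also name STAR) on Ensembl release 87, 1 column per library. The authors tested counts with DESeq2, and these counts were not used here.

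Each comparison was fitted on its own 4 libraries with limma (version 3.58.1, under R 4.3.3), using lmFit and eBayes with an intensity trend, no covariate, and log2(FPKM + 1) as the response. Genes needed 0.1 FPKM in at least 2 of these libraries. X, Y and mitochondrial genes were left out: in both 22 °C libraries and NCD replicate 6 all X and Y genes, and all but at most 1 of 37 mitochondrial genes, are listed at 0. P-values are two-sided and Benjamini-Hochberg adjusted over all genes tested. The fit was also run on simulated data with known shifts. Those data held no library types or muscle differences, so that run cannot show how the calls hold in these libraries. Because 1 is added, fold changes of low genes are understated. Depth is not stated in the table and was read from the fragment step of single-exon genes. Symbols missing in the table, positions of neighbours and exons came from GENCODE M21 on the same assembly, which matched 49109 of 49452 genes. Alternatives were other pseudocounts, filters, scalings, covariates and fits, and leaving out each library. Differences within library types were added after seeing the data. Members and lists were chosen with earlier results of these data known. All members are named. From each list, genes past threshold are named, or otherwise the 3 largest differences, and for Ppargc1a, Ppargc1b and Perm1 the 5 genes of most similar pattern. Where replicate numbers do not stand for separate mice, p-values measure only the spread between libraries.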

Additional observations from a re-analysis of the deposited data

How the results depend on the processing

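The number of genes past threshold depended strongly on the setting, and the cause was not tested. In the cold it was 252, and 474 with a pseudocount of 0.1 FPKM, 6 with no filter, 529 with the filter of 1 FPKM, 491 with quantile normalization, 758 with median centring, 550 on rescaling without mitochondrial genes, rRNA and Ucp1, 439 with all 8 libraries, 859 with library type as a covariate, 920 with X, Y and mitochondrial genes, and 0 with the muscle score (2633 at an unadjusted p under 0.05) or without the trend (4172). Leaving out 1 library gave 0 to 246: 0 without 4 °C replicate 2 (3739 at an unadjusted p under 0.05), 0 without replicate 11 (5726), and 122 without 22 °C replicate 7. Under HFD it was 12, and 0 with no filter (2830 at an unadjusted p under 0.05), after quantile normalization (2127), after rescaling (2302), with X, Y and mitochondrial genes (2533) or without the trend (2347). It was 24 with the filter of 1 FPKM, 45 after median centring, 75 with all 8 libraries, 745 with library type and 1 with the muscle score, and 122 to 751 without 1 library. Members past threshold in the cold numbered 2, and 0 with no filter, with the muscle score or without the trend, and 0 to 2 without 1 library. Under HFD there were 0 in each setting.

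Ppargc1a, Perm1, Esrra, Esrrb, Esrrg and Tfam kept a positive cold difference in every setting run, library types included, with 2.47 to 3.20 for Ppargc1a and 2.43 to 3.36 for Perm1. The cold difference reversed for Ppargc1b (quantile normalization -0.24, median centring -0.12, rescaling -0.28, -0.21 with the muscle score, and -0.051 to 0.32 without 1 library), Pprc1 (-0.10 after median centring, -0.11 after rescaling), Nrf1 (-0.036 after rescaling) and Tfb2m (-0.58 to 0.35 without 1 library). Under HFD, quantile normalization and median centring reversed Ppargc1b (-0.29 and -0.27), Esrrg (-0.058 and -0.040), Nrf1 (-0.18 and -0.17) and Tfam (-0.19 and -0.28), and median centring Esrra (-0.11). Rescaling reversed Ppargc1b (-0.070) and Tfam (-0.080), and the muscle score Esrra (-0.35), Esrrb (0.10) and Tfam (-0.54). Without 1 library, Ppargc1b ran from -0.39 to 0.56, Esrra from -0.14 to 0.63, Esrrb from -0.11 to 0.019 and Tfam from -0.42 to 0.56. None of these reversed differences was past threshold. Scaling moved the median of genes averaging 1 FPKM or more, from 0.21 to -0.04 (quantile), -0.05 (centring) and -0.15 (rescaling) in the cold and from 0.29 to -0.0087, -0.063 and 0.15 under HFD. Within library types, compared after seeing the data and with no test, differences had opposite signs for Tfb2m and Ppargc1b in the cold and for Ppargc1b, Esrrg and Tfam under HFD. With the filter of 1 FPKM Esrrb was not tested.

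No analysis paired by replicate number was possible because the compared groups share fewer than 2 of these numbers. The fit with library type as a covariate sets the satellite-high and the satellite-low libraries of the compared groups against each other. Of the calls in the cold, 213 of 252 were higher, against 313 of 491 with quantile normalization, 493 of 758 with median centring and 353 of 550 on rescaling; under HFD 9 of 12 were higher, against 23 of 45 with median centring. With 1 library in a group, the lone library is assumed to vary like the other group. Both the 2 libraries per group and, for Esrrb with as few as about 39.8 fragments, the depth limit what can be seen.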
